A study of Mus musculus with 5 samples.

Results

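The genes of the bone morphogenetic protein (BMP) ligands and of the secreted proteins that act on them were followed in mouse epiblast stem cells (EpiSCs, pluripotent cells taken from the post-implantation epiblast) that were differentiated towards mesoderm. The 9 genes were Bmp2, Bmp4, Bmp5, Bmp7, Bmp1, Nog, Chrd, Fst and Twsg1, and they were found by symbol among the 32285 genes listed, each matching 1 row. The cells were a wild-type line of 129 background derived from the epiblast of a mouse embryo. They were grown for 3 days in N2B27 medium, with 1 µM of the Wnt agonist CHIR99201 (Chi, spelled as in the labels) and 8 ng/ml BMP4 in all conditions, and single cells were sequenced from their 3′ transcript ends. FGF2 was added at 0, 0.75, 3 or 12 ng/ml in 4 of the conditions. The other held the FGF receptor inhibitor AZD4547 at 30 nM (FGFRi), for which no FGF2 dose is stated, so that its difference from 0 ng/ml cannot be assigned to the inhibitor alone. There was 1 library per condition, so that condition and culture cannot be told apart, and no test was run. All intervals below are 95% intervals that cover counting error only.

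BMP ligands are secreted dimers that signal through type I and type II serine/threonine kinase receptors and SMAD1, SMAD5 and SMAD9, and in the gastrulating embryo they pattern the mesoderm along its proximal-distal axis. Noggin (Nog) and chordin (Chrd) bind ligands outside the cell and keep them from their receptors, follistatin (Fst) binds activins most tightly and some BMPs as well, and twisted gastrulation (Twsg1) works together with chordin. Bmp1 is named for its discovery in bone extracts but encodes a tolloid-type metalloprotease that cleaves chordin and procollagens, so that it is not a ligand of this family. The BMP4 in the medium is protein, and the counts below are of the cells' own transcripts.

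In the mouse genome (GRCm38), Bmp2 lies at chr2:133552159-133562885 on the plus strand and Bmp4 at chr14:46383520-46390669 on the minus strand. Bmp5 lies at chr9:75775364-75900310 (plus), Bmp7 at chr2:172868012-172940321 (minus) and Bmp1 at chr14:70474558-70520234 (minus). Nog is found at chr11:89300638-89302332 (minus), Chrd at chr16:20733127-20742384 (plus), Fst at chr13:114452290-114458951 (minus) and Twsg1 at chr17:65921972-65951226 (minus). All are protein-coding. Promoter sequences of 4 of the 9 genes were at hand from RefSeq (GRCm38.p6), each reaching from 250 bases before the start site to 50 after it. Those of Bmp4 and Bmp5 are shown because these ligands had different dose profiles, Bmp4 being lower with more FGF2 and Bmp5 being highest at an intermediate dose. They were searched on both strands for 6-letter motifs of TCF/LEF (CTTTGA), SMAD (GGCGCC), ETS (CCGGAA) and T-box factors (AGGTGT). Capitals mark matches, and the windows are chr14:46390620-46390919 (minus) and chr9:75775115-75775414 (plus).
Bmp4: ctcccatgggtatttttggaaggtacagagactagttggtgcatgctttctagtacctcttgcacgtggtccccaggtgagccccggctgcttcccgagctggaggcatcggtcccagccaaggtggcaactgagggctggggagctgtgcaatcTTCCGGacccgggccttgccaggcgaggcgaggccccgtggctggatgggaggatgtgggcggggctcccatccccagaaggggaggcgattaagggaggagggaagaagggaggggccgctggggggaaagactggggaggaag
Bmp5: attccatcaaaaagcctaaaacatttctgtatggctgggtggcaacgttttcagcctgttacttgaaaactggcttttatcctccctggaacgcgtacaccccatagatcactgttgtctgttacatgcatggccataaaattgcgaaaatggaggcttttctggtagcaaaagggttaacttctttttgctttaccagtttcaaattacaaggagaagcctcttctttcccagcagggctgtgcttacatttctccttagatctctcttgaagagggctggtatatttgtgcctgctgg

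The Bmp4 window held 1 match, to the ETS letters in reverse complement, starting 95 bases before the start site, and the Bmp5 window held none of these letters. In all 32851 promoters of the table, 14.9% held the ETS letters, 16.0% the TCF/LEF letters, 13.7% the T-box letters and 11.9% the SMAD letters. The GC content was 64% for Bmp4 and 43.3% for Bmp5, with a median of 52.7% over all promoters. A match is a description of the letters and was not tested as a site.

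Barcodes with at least 2500 detected genes and at most 10% mitochondrial unique molecular identifiers (UMIs, which count captured transcripts) were retained, 10653 of 15375. Their median depth per library was between 24408 and 29661.5 UMIs per cell, and 73170 of 321559590 UMIs came from the 9 genes. Levels are given as CPM, the UMIs of a gene per 1000000 UMIs of a library's retained cells. Markers of the epiblast were low but present, with a summed level of 6 genes between 48.6 and 86.1 CPM. The sum over 7 markers of extraembryonic mesoderm and mesenchyme (Hand1, Acta2, Tagln, Prrx1, Pmp22, Ahnak and Col1a1) was 4042 CPM with FGFRi, 1093 at 0 ng/ml and 178 at 12 ng/ml FGF2. Hand1 alone was at 63.5, 85.7 and 32.7 CPM in these libraries, so that the sum with FGFRi rests mostly on the other genes. The sum over 6 markers of primitive streak and nascent mesoderm went from 4.70 with FGFRi to 448 at 12 ng/ml. That over 6 surface ectoderm markers was 2687 CPM with FGFRi and 2313, 1651, 897 and 866 along the doses, and the part of these cells in the levels of Bmp2 and Bmp4 was not tested. None of 4 markers of axial mesoderm and node, where Nog and Chrd are known to act in the embryo, reached 10 CPM in any library, and their sum stayed between 0.827 and 1.76.

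Among the ligands, Bmp2 differed most between the libraries. It was measured at 92.5 CPM with FGFRi (interval 89.8 to 95.2), 52.7 at 0 ng/ml FGF2, 26.2 at 0.75, 13.3 at 3 and 10.3 at 12 ng/ml (9.61 to 11.1). The level was therefore lower at each step of the series, and no neighboring intervals overlapped. From 0 to 12 ng/ml it was 5.09-fold lower (4.70 to 5.53), and from FGFRi to 12 ng/ml 8.94-fold lower (8.27 to 9.68).

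Bmp4, the endogenous gene of the ligand that was also added as protein, differed less. Its level was 86.5 CPM with FGFRi, 76.2 at 0 ng/ml, 58.1 at 0.75, 44.2 at 3 and 42.3 at 12 ng/ml. The values at 3 and 12 ng/ml did not differ beyond counting error (ratio of 12 to 3 ng/ml 0.957, 0.908 to 1.01). From 0 to 12 ng/ml the level was 1.80-fold lower (1.72 to 1.89). Within an intron of Bmp4, at chr14:46387519-46389282 on the plus strand, lies the antisense gene Gm15222, which had 13.5 CPM with FGFRi, 11.2 at 0 ng/ml, 10.2 at 0.75, 8.48 at 3 and 7.47 at 12 ng/ml. Whether counting used the strand is not given in the sources used here, so that reads of both genes cannot be told apart with certainty.

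Bmp5 had a different profile, with its highest level at an intermediate dose. It was measured at 3.39 CPM with FGFRi, 4.07 at 0 ng/ml, 8.68 at 0.75 (8.06 to 9.35), 6.75 at 3 and 2.74 at 12 ng/ml. It was 2.14-fold higher at 0.75 ng/ml than at 0 ng/ml (1.84 to 2.49), and 3.17-fold lower again at 12 ng/ml (2.70 to 3.73). FGFRi and 0 ng/ml did not differ beyond counting error (ratio 1.20, 0.978 to 1.48). These levels rest on between 162 and 708 UMIs per library. The antisense gene Gm26903, which overlaps an exon of Bmp5, was measured at between 0.314 and 1.25 CPM, also highest at 0.75 ng/ml. As for Bmp4 and Gm15222, reads of Bmp5 and Gm26903 cannot be told apart with certainty.

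Bmp7, a ligand that also forms heterodimers with Bmp2 and Bmp4, stayed nearly level. It was measured at 24.1 CPM with FGFRi, 23.2 at 0 ng/ml, 26.4 at 0.75, 23.2 at 3 and 20.4 at 12 ng/ml. Neither FGFRi nor 3 ng/ml differed from 0 ng/ml beyond counting error (ratios 0.963, 0.889 to 1.04, and 1.00, 0.928 to 1.08). The other doses did, with ratios to 0 ng/ml of 1.14 at 0.75 ng/ml (1.06 to 1.22) and 0.880 at 12 ng/ml (0.816 to 0.949). The protease gene Bmp1 was measured at 59.3 CPM with FGFRi, 31.1 at 0 ng/ml, 17.7 at 0.75, 14.5 at 3 and 19.0 at 12 ng/ml. It was thus lowest at 3 ng/ml, and higher again at 12 ng/ml by a ratio of 1.31 (1.21 to 1.43).

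The antagonists did not move together. Nog was measured at 44.0 CPM with FGFRi (42.2 to 46.0), 13.0 at 0 ng/ml, 7.59 at 0.75, 5.62 at 3 and 4.66 at 12 ng/ml. It was 3.38-fold lower at 0 ng/ml than with FGFRi (3.11 to 3.68) and a further 2.79-fold lower at 12 ng/ml (2.45 to 3.19). Fst had the opposite direction along the doses, with 8.53 CPM with FGFRi, 5.81 at 0 ng/ml, 18.8 at 0.75, 64.3 at 3 and 70.2 at 12 ng/ml. It was 12.1-fold higher at 12 than at 0 ng/ml (10.8 to 13.5), and most of this difference was reached at 3 ng/ml, since the ratio of 12 to 3 ng/ml was 1.09 (1.05 to 1.14). With FGFRi it was 1.47-fold higher than at 0 ng/ml (1.27 to 1.70).

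Twsg1 was slightly lower at each step, with 37.8 CPM with FGFRi, 31.8 at 0 ng/ml, 28.9 at 0.75, 27.3 at 3 and 24.2 at 12 ng/ml. From 0 to 12 ng/ml it was 1.32-fold lower (1.23 to 1.41), and 0.75 and 3 ng/ml did not differ beyond counting error. Chrd was close to the limit of detection in all libraries. It was measured at 1.32 CPM with FGFRi, 1.23 at 0 ng/ml, 1.20 at 0.75, 0.929 at 3 and 0.763 at 12 ng/ml, on between 54 and 98 UMIs. No neighboring libraries differed beyond counting error for Chrd, whereas 12 ng/ml was 1.61-fold below 0 ng/ml (1.12 to 2.35).

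**Figure D1:**
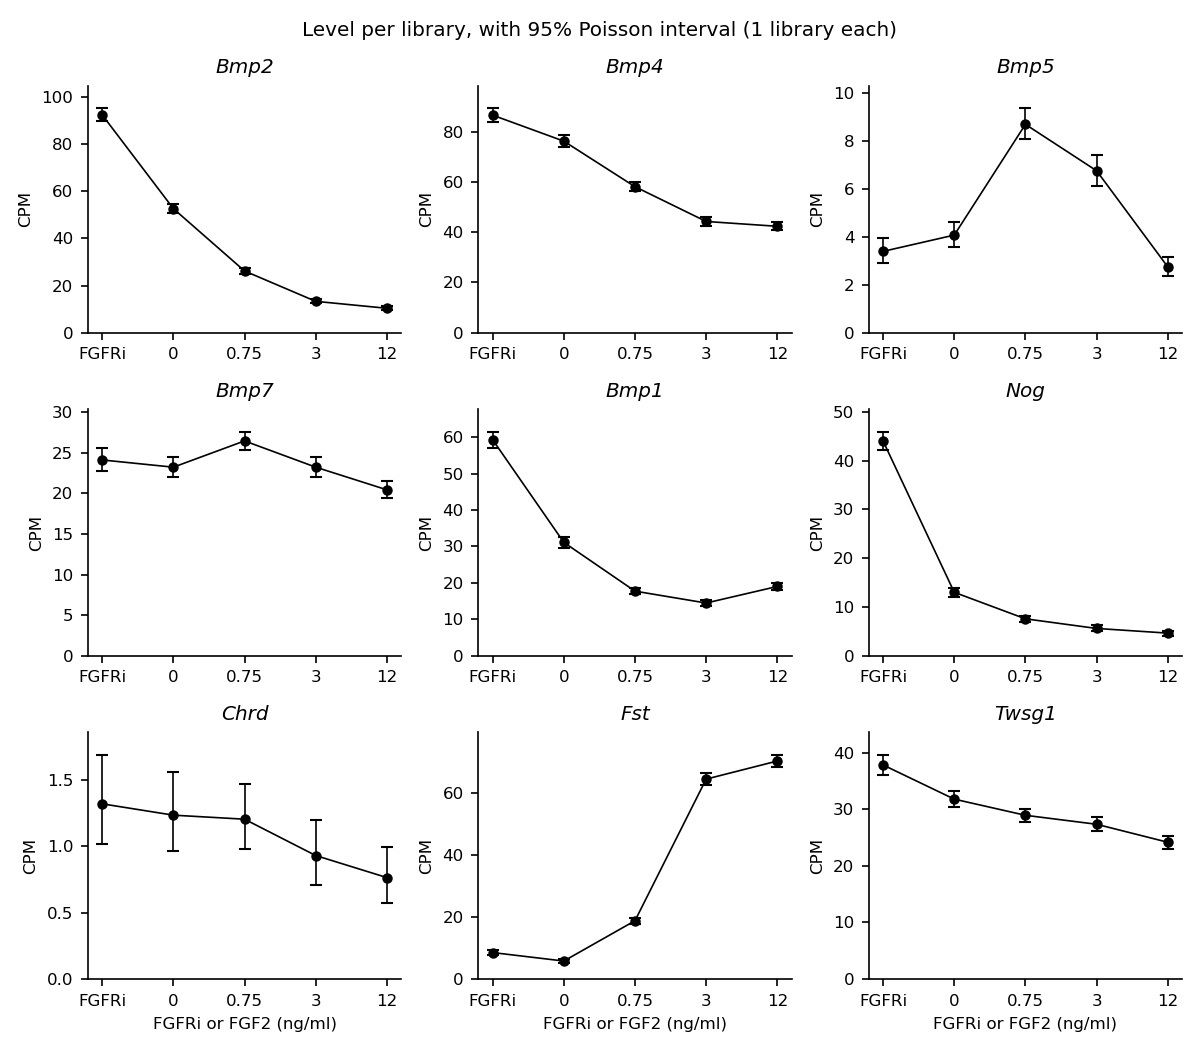
Level of each gene in each of the 5 libraries in CPM (linear axis from 0), with conditions in even steps from FGFRi to 12 ng/ml FGF2 and bars for the exact Poisson 95% interval. Fst goes from 5.81 to 70.2 CPM between 0 and 12 ng/ml FGF2, Bmp2 from 52.7 to 10.3, Bmp5 is highest at 0.75 ng/ml (8.68), and Bmp7 stays between 20.4 and 26.4.

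To set these differences against those of all genes, genes were counted that differed by a ratio of 2 or more and reached 10 CPM in 1 or both of the libraries compared. From FGFRi to 0 ng/ml, 1 of the 6 genes of the set with sufficient level passed this rule, Nog (lower), and 7.99% of all 8445 genes did. From 0 to 0.75 ng/ml, 2 of 7 passed, Fst (higher) and Bmp2 (lower), against 1.72% of all genes. Between 0.75 and 3 ng/ml the count was 1 of 6, Fst (higher), with 0.859% over all genes. No gene of 6 passed between 3 and 12 ng/ml, where 0.0883% of all genes did. For the whole range from 0 to 12 ng/ml, 3 of 7 passed, Fst (higher), Bmp2 and Nog (lower), and 5.91% of all genes. The median log2 difference over the tested genes of the set was -0.68 for that range, and 0.01 over all genes. In the comparisons with 0 ng/ml, Fst reached the minimum only through the library with FGF2, and Nog from 0 to 12 ng/ml only through 0 ng/ml, so that these had to differ to be counted. Bmp5 and Chrd were below it in all libraries.

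Other genes of the pathway were counted by the same rule in a list of 66 genes. From FGFRi to 0 ng/ml, 24 of them had sufficient level, and 3 of these had higher and 5 lower levels at 0 ng/ml, where 7.99% of all genes passed in either direction. The genes with lower levels at 0 ng/ml were Bambi, a pseudoreceptor (168.9 CPM with FGFRi and 67.1 at 0 ng/ml), Furin, a convertase that cleaves ligand precursors (62.6 and 30.3), and the secreted proteins Fstl1 (175.3 and 63.9), Sostdc1 (22.3 and 1.32) and Nbl1 (25.9 and 8.78). The 3 with higher levels were the target genes Id1 (64.0 and 164.3 CPM) and Msx1 (49.5 and 138.1), and the ligand Gdf11 (9.45 and 25.0). Sostdc1, Nbl1 and Gdf11 reached the minimum only through the library where they were higher, so that they had to differ to be counted.

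From 0 to 12 ng/ml FGF2, 2 of 22 pathway genes were higher and 3 lower, against 5.91% of all genes in either direction. Those with higher levels were Lefty1 and Lefty2, secreted antagonists of Nodal, which went from 2.90 to 21.2 CPM and from 2.13 to 11.9 and reached the minimum only through 12 ng/ml. Bambi was at 31.0 CPM at 12 ng/ml, and the target genes Id2 and Msx2 went from 281.3 to 136.7 CPM and from 77.1 to 31.5. The other targets on the list did not pass. Id1 went from 164.3 to 180.3 CPM, Msx1 from 138.1 to 136.2 and Id3 from 248.3 to 215.5. Id4, which went from 7.20 to 2.26 CPM, was below the minimum. None of 21 pathway genes passed from 0 to 0.75 ng/ml, 1 of 24 (Lefty1, which reached the minimum only through 3 ng/ml) from 0.75 to 3 ng/ml and none of 23 from 3 to 12 ng/ml. No receptor passed in any of these comparisons. The closest was Bmpr2, the type II receptor, with 82.0 CPM with FGFRi and 41.7 at 0 ng/ml, 1.97-fold lower. Of the 20 other ligands of the family on the list, only Gdf11 reached 10 CPM in any library, and Bmp10, Gdf1, Gdf2 and Mstn had no UMI.

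The genes differed in how they were spread over the cells of a library. For each, the share of cells with at least 1 UMI was set against the share that would result if its UMIs were spread over cells in proportion to their depth. Twsg1 was spread nearly evenly, with a ratio of observed to even share between 0.964 and 1.01 in the 5 libraries. Bmp7 followed with 0.880 to 0.922. Chrd had 0.908 to 1.02, on few UMIs.

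Bmp2 and Fst had the lowest ratios in each library. The ratio comes closer to 1 as the UMIs of a gene get fewer, so that genes and libraries with unlike numbers of UMIs cannot be ranked by it alone. For Bmp2 the ratio was 0.510 with FGFRi, 0.464 at 0 ng/ml, 0.477 at 0.75, 0.424 at 3 and 0.370 at 12 ng/ml. For Fst it was 0.614 with FGFRi, 0.517 at 0 ng/ml, and 0.248, 0.283 and 0.326 at 0.75, 3 and 12 ng/ml. Fst had 330 UMIs at 0 ng/ml and 1531 at 0.75 ng/ml, of which the 10% of cells with most held 100% and 99.3%. Since only 8.96% and 10.3% of cells held a UMI of Fst there, these shares had to be at or near 100%. At 0.75 ng/ml, 10.3% of cells held a UMI of Fst where 41.7% would under an even spread, and a single cell held up to 89 UMIs (at 3 ng/ml). Bmp4 had intermediate ratios, from 0.715 with FGFRi to 0.587 at 12 ng/ml, and Bmp1 (0.671 to 0.783), Nog (0.585 to 0.676) and Bmp5 (0.762 to 0.864) also did. At 0.75 ng/ml, the 10% of cells with most UMIs held 72.5% of the 708 UMIs of Bmp5 and 52.1% of the 4735 of Bmp4. This share gets higher as the UMIs of a gene get fewer, so that it does not rank these genes either.

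**Figure D2:**
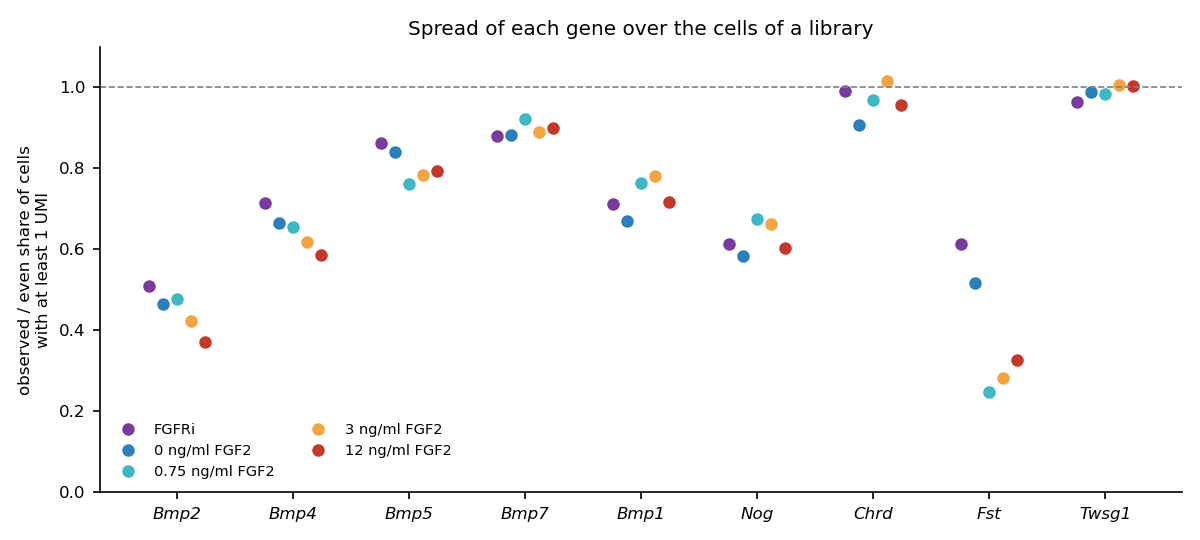
Observed share of cells with at least 1 UMI of a gene, divided by the share under a spread in proportion to depth (y axis), for the 9 genes in the 5 libraries (1 point per library). Points near 1 (dashed line) stand for an even spread, as for Twsg1 (0.964 to 1.01), or for few UMIs, as for Chrd. Low points stand for UMIs held by few cells, as for Fst with FGF2 (0.248 to 0.326).

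To compare shares of cells between libraries, each cell was thinned to 10000 UMIs, which left out 39 cells with FGFRi and 17, 19, 10 and 9 along the doses. At this depth, 30.3% of cells with FGFRi held a UMI of Bmp2, 21.5% at 0 ng/ml, 14.6% at 0.75, 7.75% at 3 and 5.21% at 12 ng/ml (without thinning 44.7%, 36.2%, 25.0%, 13.8% and 9.56%). The share for Fst was 6.38% with FGFRi, 4.35% at 0 ng/ml, 5.51% at 0.75, 15.7% at 3 and 17.9% at 12 ng/ml (without thinning 12.8%, 8.96%, 10.3%, 23.5% and 27.6%). Between 0 and 0.75 ng/ml the share of Fst-carrying cells therefore differed little (intervals 3.42% to 5.44% and 4.68% to 6.43%), whereas the mean number of UMIs in a carrying cell went from 1.41 to 2.91. At 3 and 12 ng/ml that mean was 3.51 and 3.32.

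For the other genes the thinned share was 40.9% with FGFRi and 22.9% at 12 ng/ml for Bmp4, 33.3% and 14.1% for Bmp1, 24.5% and 3.05% for Nog, and 31.5% and 22.2% for Twsg1. Without thinning, these were 61.6% and 40.4%, 54.0% and 30.0%, 40.8% and 7.69%, and 59.1% and 49.6%. Bmp7 lay between 19.1% and 23.9% in all libraries, Bmp5 between 2.50% and 8.06%, and Chrd between 0.893% and 1.26%. Without thinning, the range was 39.6% to 48.6% for Bmp7, 6.11% to 17.1% for Bmp5 and 2.12% to 3.66% for Chrd. At 0 and 12 ng/ml the thinned share for Chrd was 0.893% and 0.960% (0.501% to 1.47% and 0.609% to 1.44%). The lower level of Chrd at 12 ng/ml was thus not seen in this share, whereas the share without thinning was 3.66% and 2.12%.

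Which cells carried these genes was examined in 7 clusters of all cells, formed on variable genes without the 9 genes and the pathway list. Clusters are numbered by size and described by their leading genes. Cluster 0 (2748 cells) was led by Sfn, Pdgfb and Igfbp2, cluster 1 (2569) by Epha5, Greb1 and Trim2, and cluster 3 (1232) by Dlx5, Rab25 and Upk1a. Cluster 2 (2103 cells) had Tbx6, Dll1 and Dll3 among its 10 leading genes and is called presomitic mesoderm-like. Cluster 4 (925) was led by Psmb8, Sprr2a3 and Fst, with T, the gene of Brachyury, among its 10 leading genes. Cluster 5 (796 cells) was led by Lce1h, Ptgs2 and Mir100hg, with Prrx1 and Acta2 also among its leading genes, and cluster 6 (280) by Gm9112, Pkib and Esx1. Of the cells of cluster 5, 746 came from the FGFRi library, so that this cluster and that library cannot be told apart. Since the clusters rest on other genes of the same cells, the levels within them are a description.

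With FGF2, Fst was found mainly in cluster 4. There it reached 166.7, 249.95 and 250.9 CPM at 0.75, 3 and 12 ng/ml, and the cluster held 67.0%, 65.3% and 60.2% of all Fst UMIs in these libraries, with 7.27%, 15.6% and 15.9% of their cells. The level in this cluster was therefore the same at 3 and 12 ng/ml within counting error (240.6 to 259.5 and 242.0 to 260.1). Cluster 4 had only 12 cells at 0 ng/ml and 1 with FGFRi. Most Fst UMIs lay elsewhere in these libraries, 52.1% in cluster 0 at 0 ng/ml and 74.5% in cluster 5 with FGFRi. Fst also differed by dose within clusters. In the presomitic mesoderm-like cluster it was 8.03 CPM at 0 ng/ml, 14.6 at 0.75, 45.5 at 3 and 45.1 at 12 ng/ml. In cluster 1 it was 8.71-fold higher at 12 than at 0 ng/ml (5.97 to 13.1), and in cluster 0 4.23-fold (3.48 to 5.15).

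In cluster 3, Fst was hardly detected. At 10000 UMIs, 0 of 564 cells of this cluster held a UMI at 0.75 ng/ml. At 3 and 12 ng/ml, 0 of 251 and 0 of 119 did. The intervals allow shares of cells with a UMI of up to 0.652%, 1.46% and 3.05% at this depth. They set no limit on cells expressing the gene. Without thinning, the cluster held 1, 1 and 2 UMIs of Fst in these libraries. The median depth of these cells was 23578, 25196.5 and 24832 UMIs, against 28411.5, 30063 and 28736 in cluster 4, where 39.9%, 45.2% and 45.0% of cells held one.

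Cluster 3 was where Bmp5 was highest from 0 to 12 ng/ml FGF2. It was measured there at 15.3 CPM at 0 ng/ml, 28.4 at 0.75, 30.6 at 3 and 21.0 at 12 ng/ml. The cluster held 59.3% of all Bmp5 UMIs at 0.75 ng/ml, with 20.9% of cells. The share of cells in cluster 3 was 0.882% with FGFRi, 16.3% at 0 ng/ml, 20.9% at 0.75, 11.9% at 3 and 4.95% at 12 ng/ml, and was thus highest in the same library as the overall level of Bmp5. Bmp5 was lowest in cluster 6 at 0 and 0.75 ng/ml, where none of 117 and of 95 cells held a UMI at 10000 UMIs (shares of cells with a UMI of up to 2.56% and 3.16%, with 2 and 0 UMIs of Bmp5 before thinning). At 3 and 12 ng/ml, cluster 6 had 23 and 10 cells, fewer than the minimum of 50, and was not compared. Among the other clusters, Bmp5 was then lowest in the presomitic mesoderm-like cluster (1.59% and 0.638% of cells), set against 24.3% and 16.8% in cluster 3. Bmp7 was also highest in cluster 3 at 0, 3 and 12 ng/ml (35.9, 42.3 and 46.6 CPM), but was at least 11.1 CPM in every cluster of at least 50 cells in every library.

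Bmp2 and Bmp4 were highest in cluster 5 with FGFRi, at 156.2 and 125.9 CPM, and this cluster held 76.7% and 66.1% of their UMIs in that library. Bmp1 (88.9 CPM), Nog (70.1) and Fst (14.0) also had their highest level with FGFRi there. With FGF2, Bmp2 was found in clusters 0 and 3, with 44.4 and 58.6 CPM at 0.75 ng/ml. At that dose it was scarce in cluster 1 (4.30 CPM, 3.04% of cells at 10000 UMIs) and in the presomitic mesoderm-like cluster (2.64 CPM). At 10000 UMIs 1.55% of the cells of the latter held a UMI of Bmp2 at 0.75 ng/ml, against 32.1% in cluster 3, with median depths of 27635 and 23578 UMIs. Bmp4 was found in clusters 0 and 3 as well, and in addition in the Fst-carrying cluster 4 (88.9, 76.7 and 74.2 CPM at 0.75, 3 and 12 ng/ml), where Bmp2 had 7.80, 2.94 and 3.02 CPM. It was lowest in cluster 6 at 0 and 0.75 ng/ml (8.38 and 6.14 CPM, 4.27% and 5.26% of cells).

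Within cluster 0, Bmp2 and Bmp4 differed between FGFRi and 0 ng/ml in the other direction from that over all cells. Bmp2 was at 42.4 CPM with FGFRi and at 72.6 at 0 ng/ml in this cluster, a ratio of 1.71 (1.59 to 1.85), and Bmp4 at 55.8 and 109.2, a ratio of 1.96 (1.83 to 2.09). Over all cells both were lower at 0 ng/ml than with FGFRi. Bmp1 and Fst also had ratios above 1 in this cluster (1.17 and 1.87), whereas Nog, Bmp7 and Twsg1 were lower at 0 ng/ml there (0.725, 0.727 and 0.814). In cluster 1, Bmp4 kept the direction seen over all cells (0.760, 0.607 to 0.962). Cluster 0 held 49.1% and 43.0% of the cells of these libraries, and cluster 5 held 43.9% and 2.59%. From 0 to 12 ng/ml, Bmp4 was 1.49-fold higher in cluster 3 (1.25 to 1.76) and lower in clusters 0, 1 and 2 (ratios 0.867, 0.771 and 0.691). Bmp2 was lower in cluster 0 (72.6 and 47.4 CPM, ratio 0.652, 0.589 to 0.722) and in cluster 1 (0.331, 0.191 to 0.553). It did not differ beyond counting error in cluster 3 (ratio 1.11, 0.898 to 1.38) or in cluster 2 (1.86, 0.694 to 7.05), where it had 4 UMIs at 0 ng/ml. Bmp1 was 1.44-fold higher at 12 than at 0 ng/ml within cluster 0 (1.31 to 1.59), although it was lower over all cells.

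The antagonist Nog was lowest in the presomitic mesoderm-like cluster at 0, 3 and 12 ng/ml (1.11, 1.38 and 1.21 CPM, 1.77%, 1.06% and 0.821% of cells), and highest in cluster 0 in these libraries (17.7, 9.87 and 12.5 CPM). At 0.75 ng/ml it was highest in cluster 4 (12.7 CPM, with 10.6 in cluster 0). At 3 ng/ml cluster 4 had 9.20 CPM (7.49 to 11.2), an interval that overlapped that of cluster 0 (7.76 to 12.4). Cluster 4 held 27.5% and 32.7% of Nog UMIs at 3 and 12 ng/ml, with 15.6% and 15.9% of cells. In cluster 1, Nog was 11.5 CPM at 0 ng/ml, compared with 3.61 at 12 ng/ml. Bmp1 was lowest in cluster 3 at all FGF2 doses (5.98 to 7.36 CPM, 5.07% to 8.16% of cells). Chrd had its highest value in cluster 1 in all libraries, at no more than 2.95 CPM and on between 5 and 57 UMIs. In every library its interval there overlapped that of another cluster. With FGFRi this interval was 0.957 to 6.88, from 5 UMIs. Twsg1 lay between 14.8 CPM in cluster 6 at 0.75 ng/ml and 40.1 in cluster 0 with FGFRi. At 3 and 12 ng/ml, cluster 0 was instead where it was lowest (24.0 and 20.4 CPM). The lowest share of cells with a UMI of Twsg1 in a cluster was 13.7%.

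**Figure D3:**
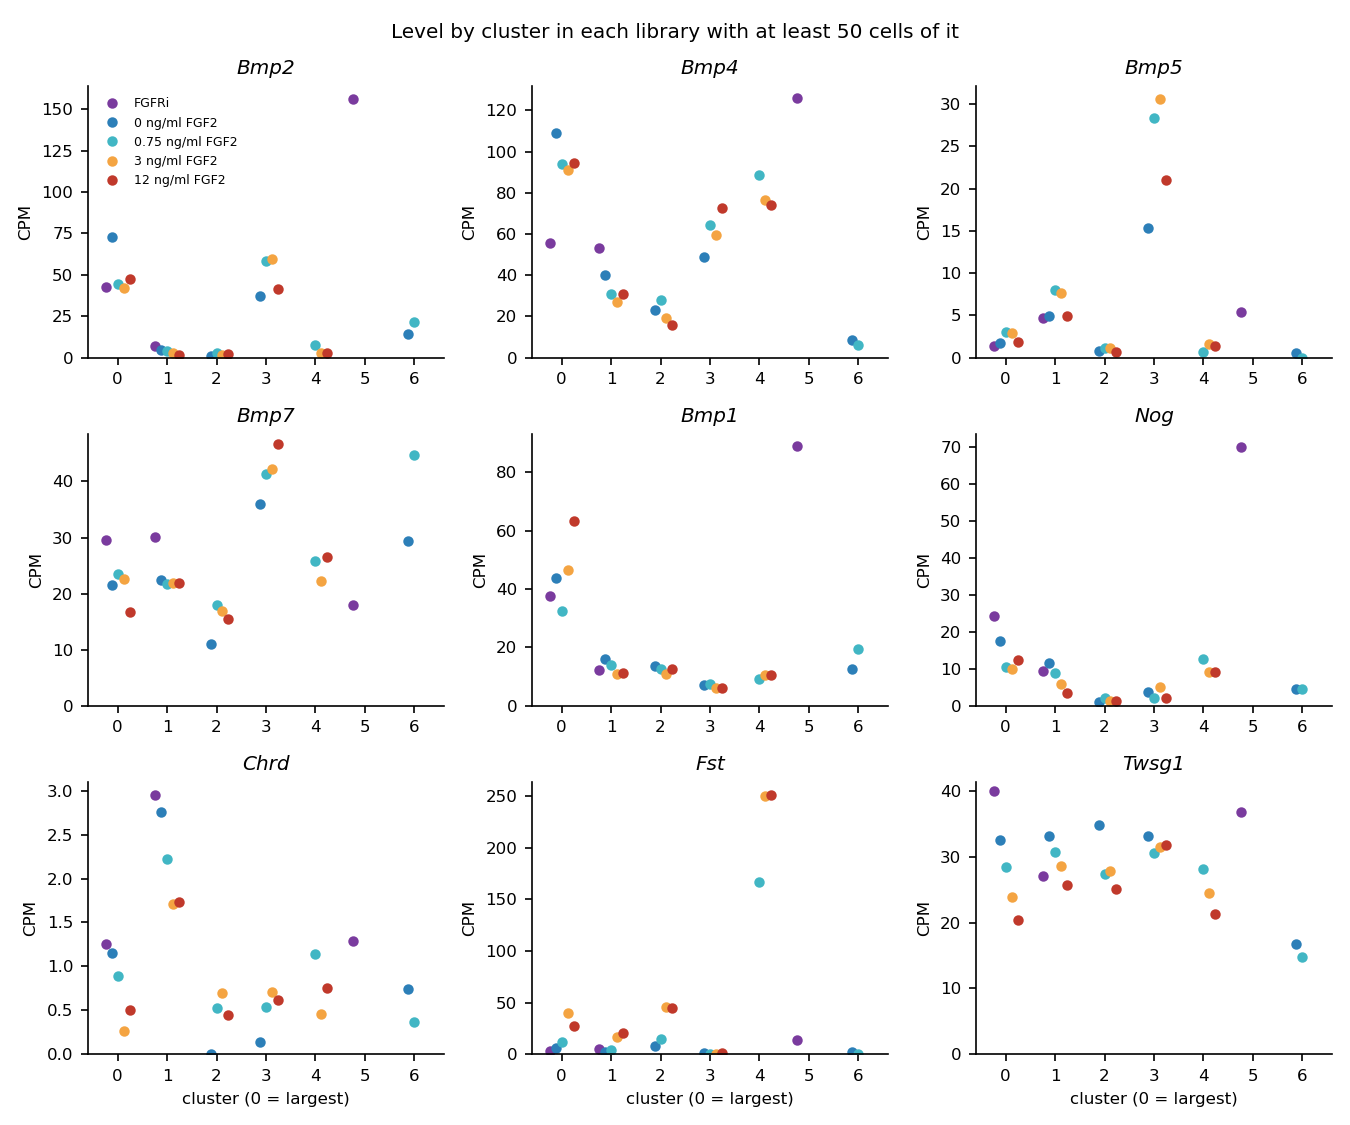
Level in CPM (linear axes from 0, own scale for each gene) by cluster, with 1 point for each library (color) that had at least 50 cells of the cluster. Fst stands out in cluster 4 (166.7 to 250.9 CPM) and is hardly detected in cluster 3, where Bmp5 is highest from 0 to 12 ng/ml FGF2 (15.3 to 30.6), whereas Twsg1 lies between 14.8 and 40.1 throughout.

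The same question was asked with single markers. Cells were called positive for a marker if they held at least 1 UMI of it at 10000 UMIs, and levels in positive and negative cells of the same library were compared. Free RNA in droplets was not estimated, and its part in these calls, the few T-positive cells with FGFRi included, was not tested. These intervals treat UMIs as independent and do not cover the spread between cells, so that values at a second depth of 5000 UMIs are given for the main ones. Fst was higher in T-positive than in T-negative cells in all 5 libraries. At 0.75 ng/ml it was 50.1 CPM in 911 T-positive cells and 2.52 in 1795 T-negative cells, 19.9-fold higher (16.7 to 23.9, and 15.1-fold at 5000 UMIs). At 3 ng/ml the levels were 99.1 and 7.65 CPM, 13.0-fold (6.12-fold at 5000 UMIs), at 12 ng/ml 97.5 and 20.03 CPM, 4.87-fold (4.49-fold), and at 0 ng/ml 13.5 and 4.46 CPM, 3.03-fold (4.23-fold). With FGFRi, 9 cells were T-positive, and the ratio of 9.49 rests on them.

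Bmp2 was lower in T-positive cells in all libraries, with ratios between 0.151 and 0.303 (with FGFRi 0.588 at 5000 UMIs, from 5 positive cells), and lower in cells positive for Tbx6, a gene of the presomitic mesoderm, at all FGF2 doses (0.0481 to 0.224). Bmp4 was lower in Tbx6-positive cells too (0.252 to 0.429), but less so in T-positive cells with FGF2 (0.722, 0.802 and 0.715 at 0.75, 3 and 12 ng/ml). Nog was lower in Tbx6-positive cells as well (0.169 to 0.418). Bmp5 was higher in Cdx2-positive cells at all FGF2 doses (ratios between 1.45 and 3.17, and 1.18 at 3 ng/ml with 5000 UMIs), and lower in Hand1-positive cells (0.410, 0.184, 0.257 and 0.510, the last being 0.222 at 5000 UMIs). Hand1, which the paper uses as a marker of more proximal mesoderm, was highest here in cluster 6 (203.0 CPM). Cdh1 (E-cadherin) was at 153.3 CPM in that cluster and Cdh2 (N-cadherin) at 3.01. Hand1 was at 81.6 CPM in cluster 5, 61.7 in cluster 0, 60.7 in the presomitic mesoderm-like cluster and 50.4 in cluster 4. Hand1-positive cells are therefore not read as 1 cell type. Bmp1 was lower in Cdx2-positive cells in all libraries (0.347 to 0.477).

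For Cdh1 and Cdh2, the genes of E- and N-cadherin, the relation to Bmp2 and Bmp4 differed between the inhibitor and the highest dose. Bmp4 in Cdh1-positive and negative cells was at 54.0 and 110.8 CPM with FGFRi, a ratio of 0.487 (0.454 to 0.522), and at 73.7 and 32.6 CPM at 12 ng/ml, a ratio of 2.26 (2.10 to 2.43). The ratios between were 1.05, 1.46 and 1.81 at 0, 0.75 and 3 ng/ml, so that they were higher with each step. For Bmp2 the ratio in Cdh1-positive cells went from 0.736 with FGFRi over 1.84, 2.93 and 3.06 to 5.64 at 12 ng/ml (4.64 at 5000 UMIs). In Cdh2-positive cells the ratio was above 1 with FGFRi, at 2.12 for Bmp4 and 1.77 for Bmp2, and below 1 at 12 ng/ml, at 0.545 and 0.248, the value of Bmp2 at 3 ng/ml being 0.242 (0.671 and 0.373 at 5000 UMIs). Bmp5 and Nog followed Bmp4 at Cdh1, with ratios of 0.276 and 0.602 with FGFRi and 2.37 and 2.44 at 12 ng/ml. In cluster 5, which held 43.9% of the cells with FGFRi, Cdh2 was at 151.1 CPM and Cdh1 at 34.2. The part of this cluster in the ratios with FGFRi was not tested.

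Fst and Nog did not share the change of direction at Cdh2. Fst was higher in Cdh2-positive cells in all 5 libraries (1.59 to 2.26), and the ratio of Nog was between 1.14 and 2.26, with an interval above 1 in 4 of 5. Bmp7 was lower in Cdh2-positive cells (0.620 to 0.733) and higher in Cdh1-positive cells (1.14 to 1.46) in all libraries. By Cdh1, the ratios of Fst lay between 0.509 and 2.14, with 2 intervals below 1 and 2 above it. Twsg1 differed little between the classes, with 29 ratios between 0.826 and 1.17 over the 6 markers.

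**Figure D4:**
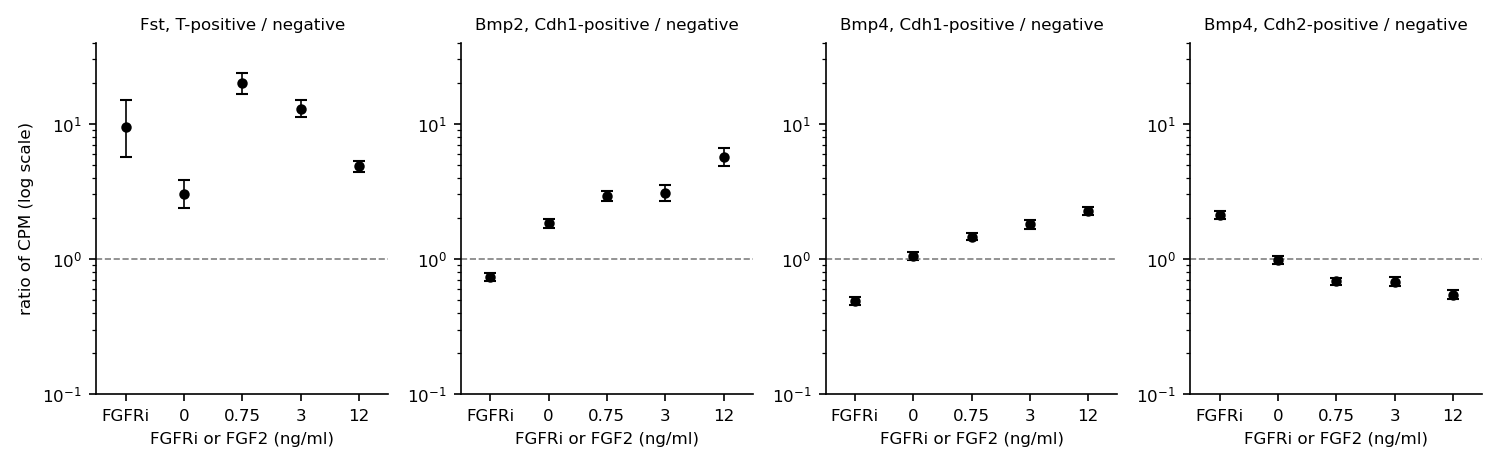
Ratio of CPM in marker-positive to marker-negative cells (log axis, dashed line at 1) for Fst by T, Bmp2 by Cdh1, and Bmp4 by Cdh1 and by Cdh2, in each library, with bars for the exact conditional 95% interval. The Cdh1 ratio of Bmp4 goes from 0.487 with FGFRi to 2.26 at 12 ng/ml and its Cdh2 ratio from 2.12 to 0.545, while Fst is higher in T-positive cells throughout (FGFRi value from 9 positive cells).

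Whether ligands and antagonists were carried by the same cells was measured as the number of cells with UMIs of both genes, divided by the number expected from the product of both shares, at 10000 UMIs and where at least 10 cells were expected. Of 129 such values, 27 had an interval above 1, 9 below 1 and 93 held 1. Bmp2 and Bmp4 were found together in 224 cells where 206.2 were expected with FGFRi, a ratio of 1.09 (0.949 to 1.24). At 5000 UMIs this ratio was 1.27, with an interval above 1 (1.06 to 1.51). At 0 ng/ml it was 198 cells against 133.7 expected, 1.48 (1.28 to 1.70), and at 12 ng/ml 58 cells against 28.6, 2.03 (1.54 to 2.62), with ratios of 1.48 and 1.85 at 0.75 and 3 ng/ml. The cells that carried both ligands were thus more frequent than the product at every FGF2 dose.

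Fst was found with Bmp2 less often than the product at 0.75 and 3 ng/ml, in 9 cells against 21.7 expected (0.415, 0.190 to 0.788) and in 6 against 25.7 (0.233, 0.0855 to 0.507). At 0 ng/ml it was found with Bmp2 more often, in 28 cells against 15.7 (1.78, 1.19 to 2.58), and with FGFRi and at 12 ng/ml the interval held 1 (1.15 and 0.624). At 5000 UMIs the ratio was 0.738 at 0.75 ng/ml, with an interval that held 1 (0.297 to 1.52), and 0.268 at 12 ng/ml with an interval below it (0.0552 to 0.783). With FGFRi it was then 1.92, with an interval above 1 (1.25 to 2.81). With Bmp4, in contrast, Fst was found as often as the product gave at 0.75, 3 and 12 ng/ml. The intervals were 0.700 to 1.28, 0.783 to 1.23 and 0.698 to 1.08. At 0 ng/ml Fst was found with Bmp4 more often than the product (1.55, 1.12 to 2.10), as with Bmp2. At 5000 UMIs that interval held 1 (1.56, 0.925 to 2.47). With FGFRi the interval of Fst with Bmp4 held 1 (0.922, 0.659 to 1.26). Of the cells that carried Fst at 3 ng/ml, 79 of 332 also carried Bmp4 and 6 carried Bmp2.

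Fst and Bmp5 were hardly found in the same cells. At 0.75 ng/ml no cell held both where 12.0 were expected (upper limit of the ratio 0.307), at 3 ng/ml 2 cells did against 20.4 (0.0980, 0.0119 to 0.354), and at 12 ng/ml 4 against 10.8 (0.372, 0.101 to 0.952). At 5000 UMIs 0, 2 and 2 cells held both, and the intervals at 3 and 12 ng/ml then held 1. Nog, in contrast, was found with Bmp2 more often than the product with FGFRi (1.47, 1.27 to 1.71) and at 0 ng/ml (1.81, 1.37 to 2.34), and with Bmp4 at ratios of 1.20 (1.03 to 1.37) and 1.49 (1.18 to 1.84). Nog and the protease gene Bmp1 were found together at ratios of 1.53 with FGFRi and of 1.69 and 2.05 at 0 and 12 ng/ml, with intervals above 1, and at 0.75 ng/ml at 1.29 with an interval that held 1 (0.860 to 1.87). All 35 values with Twsg1 had intervals that held 1 (0.750 to 1.26). Droplets with 2 cells were not removed, and their part in these values was not tested.

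**Figure D5:**
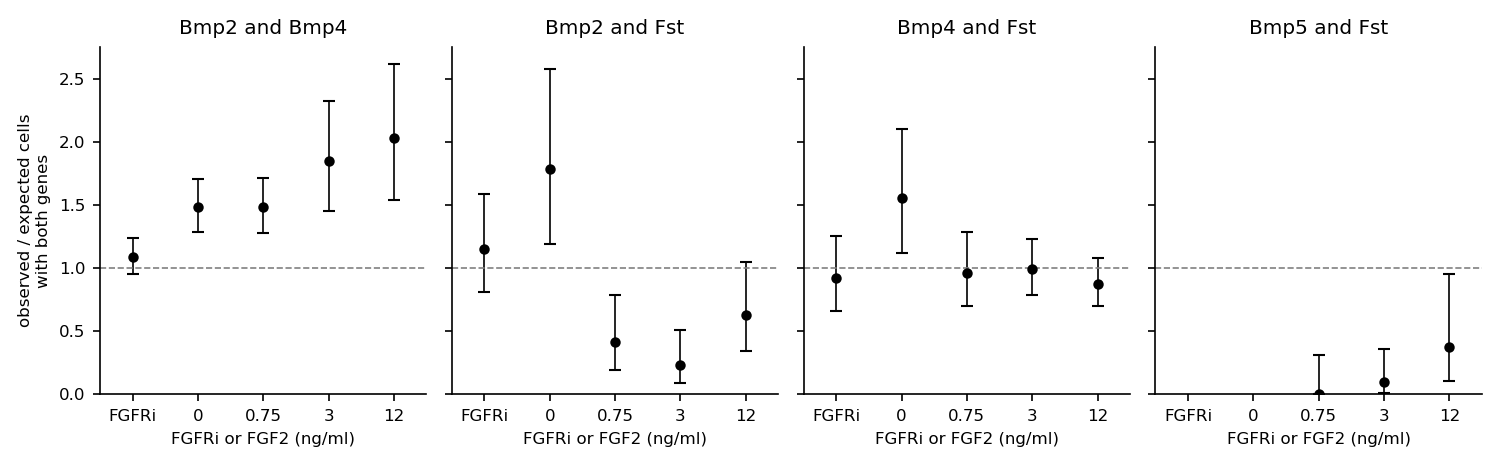
Cells with UMIs of both genes divided by the number expected from the product of their shares (y axis, dashed line at 1) in each library, at 10000 UMIs per cell, with exact Poisson 95% intervals and only where at least 10 cells were expected. Bmp2 and Bmp4 are found together more often than the product from 0 to 12 ng/ml FGF2 (1.48 to 2.03), Fst and Bmp5 rarely (0 to 0.372), and Fst with Bmp4 close to 1 at 0.75 to 12 ng/ml.

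For each gene of the set with at least 10 CPM in any library, the genes with the most similar levels over 24 groups of cells (1 cluster in 1 library, at least 50 cells) were listed by Pearson's r of log2(CPM + 1). The groups share libraries and clusters, so that r is a description. For Bmp2 these were Cd63, Jak1 and Sdc4 (r of 0.96, 0.96 and 0.94), and for Bmp4 the antisense gene Gm15222 (0.92), Tspan31 (0.89) and Pfdn1 (0.88). For Fst they were Tmem185a (0.93), Sulf1, an extracellular sulfatase (0.90), and Ndufs4 (0.90), and for Nog Lrp2 (0.89), Pmp22 (0.88) and Timp3 (0.85). Bmp1 was most like Flnc, Creb3l1 and Tns1 (0.95, 0.94 and 0.94), Bmp7 like BC052040, Lockd and Ank3 (0.92, 0.87 and 0.87), and Twsg1 like Fhl1, Tgfbr1 and Snn (0.91, 0.88 and 0.88). Within the set, r was highest between Bmp1 and Nog (0.70) and lowest between Bmp7 and Fst (-0.57).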

How the data were processed

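Single-cell RNA sequencing of 5 libraries, 1 per condition, was analyzed. The authors deposited raw counts of UMIs per gene and cell barcode, without normalization, aligned to mm10 (GENCODE vM23/Ensembl 98 reference of 10x Genomics). The submitters' processing notes name Cell Ranger, and the file headers give version 5.0.1. Barcodes with at least 2500 genes and at most 10% mitochondrial UMIs were kept, as in the study's methods, which retained 10653 barcodes. UMIs were summed over cells per library, with exact Poisson, binomial (Clopper-Pearson) and conditional intervals, and no test was run with 1 library per condition. Clustering used Scanpy 1.11.5 (50000 counts per cell, 2600 variable genes, total counts and mitochondrial share regressed out, 50 components, 15 neighbors, Leiden resolution 0.33 with leidenalg 0.10.2, seed 0). No doublet caller was run, and 7 retained barcode sequences occurred in 2 or more libraries. edgeR 4.0.16 (R 4.3.3) gave the TMM factors of an alternative. The steps were tested on simulated data. Positions came from GENCODE vM21 (GRCm38).

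The genes, lists and rules were chosen with earlier results of these data known. Named were the 9 genes, pathway genes past the rule of size between FGFRi and 0 ng/ml or between 0 and 12 ng/ml, the 3 most similar genes per gene, the 3 leading genes per cluster and 6 markers. Bmpr2, Gm26903 and Lefty1 from 0.75 to 3 ng/ml, and pathway genes without a UMI, were added after their values were seen.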

Additional observations from a re-analysis of the deposited data

How the results depend on the processing

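With 1 library per condition, no value has a replicate check, and intervals do not cover the spread between cultures or cells. No paired analysis was possible because each condition has 1 library. The log2 ratios between 12 and 0 ng/ml and between 0 ng/ml and FGFRi moved by at most 0.015 with TMM factors, 0.016 with median-of-ratios factors, 0.089 with all barcodes, 0.13 with at most 5% mitochondrial UMIs and 0.25 with the mean of per-cell CPM. The sign changed in 1 of these, Bmp7 from FGFRi to 0 ng/ml with at most 5% mitochondrial UMIs (0.030 against -0.054 as reported, with an interval that held 0). The shift of 0.25 was that of Chrd from 0 to 12 ng/ml (-0.69 as reported), which kept its sign. The mean of per-cell CPM put Fst from 0 to 12 ng/ml at 3.43 (3.59 as reported) and Bmp4 from FGFRi to 0 ng/ml at -0.26 (-0.18).

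The counts of the rule of size depended on its limits. With a ratio of at least 1.5, it counted 3 genes of the set from FGFRi to 0 ng/ml, 4 from 0 to 0.75 ng/ml, 2 from 0.75 to 3 ng/ml and 5 from 0 to 12 ng/ml, and in the same order 21.8%, 5.39%, 3.26% and 13.0% of all genes, with 0.946% from 3 to 12 ng/ml. With at least 50 CPM it counted 0 and 1 in the first and second comparison, against 6.46% and 1.51% of all genes, and the share of all genes was 0.432% from 0.75 to 3 ng/ml and 0% from 3 to 12 ng/ml. From 3 to 12 ng/ml, Bmp5 made the count 1 with at least 5 CPM (0.145% of all genes) and with no minimum (3.97%). With no minimum, the other shares of all genes were 15.5%, 7.44%, 5.74% and 14.5% (0 to 12 ng/ml).

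At 5000 UMIs per cell, 168 of 250 marker ratios and 95 of 129 co-detection ratios stayed within their interval. The direction turned for Fst by Tbx6 at 3 ng/ml (0.612), Fst by Hand1 at 12 ng/ml (0.909), Nog by T at 12 ng/ml (1.05), Bmp5 by Hand1 with FGFRi (0.988) and Bmp5 with Bmp7 at 0 ng/ml (0.527, 2 cells against 3.80 expected). The cause was not tested. Resolution 0.5 gave 10 clusters and all variable genes gave 6, with the ratio of the highest to the lowest cluster level of Fst at 7.98 and 7.42 on the log2 scale (9.71 as reported).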
